A study of Rattus norvegicus with 9 samples.

Results

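The baseline transcriptome described here is that of purified rat retinal ganglion cells transfected with mCherry, a red fluorescent protein, as the control of a study of the protein Set-β. It rests on the 3 arrays titled mCherry, of 9 arrays in the series, and was ranked over the 18166 genes that a single-symbol transcript cluster named, each gene standing on its cluster of highest mean. The other 6 arrays came from ganglion cells that received wild-type Set-β (titled wt-SetB and written wt_Set here, 3 arrays) or myr-Set-β (titled myr-SetB and written myr_Set here, 3 arrays). Set binds histones and inhibits the phosphatase PP2A, and a myristoyl group anchors proteins to membranes. All groups were primary cells from postnatal day 4 rats of the Sprague Dawley strain, captured by immunopanning (binding to dishes coated with antibody), electroporated right after isolation and given a green fluorescent protein plasmid beside the construct. Green cells were sorted the following morning and cultured on laminin, and RNA was extracted 3 days after transfection, so even the control cells had been transfected, sorted and cultured. The titles call the 3 arrays of a group biological replicates, and the labels do not say how many animals went into a sample or whether replicates were separate litters or cultures. Each SD and p-value measures the spread between these arrays, of which a part may be technical.

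Retinal ganglion cells are the output neurons of the retina: they collect signals from bipolar and amacrine cells and send them along the optic nerve to the brain. In the first postnatal days of a rat their axons have reached their targets, and their ability to regrow axons declines around this age. After purification they are axotomised cells that depend on trophic factors and regrow neurites in culture. Growing neurites need tubulin, actin, membrane proteins of the growth cone and motors for transport, and the energy and protein synthesis behind them.

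Levels are log2 intensities of a Rat Gene 2.0 ST array, on which several probes along a gene are summarised into 1 value. The authors set the median of each array to 100 on the linear scale. Over genes, the mean level of the 3 mCherry arrays had a median of 6.91, with 25% of genes under 6.09 and 25% over 7.85, and the highest level on any array was 13.74. Levels of different genes also depend on how well their probes bind, so a rank is a rank of signal and not of molecules per cell. The value is averaged over probes and is not a sum over the length of the gene.

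Background was read from the 1184 odorant receptor genes on the array, which neurons of the retina are not known to use. A gene was called above background if it exceeded the 95th percentile of odorant receptors on each of the 3 arrays, which lay at 7.28, 7.76 and 7.59 on replicates 1, 2 and 3. By this rule 3949 genes (21.7%) were above background. A gene was called abundant if its mean was in the top 5% (908 genes, down to a mean of 9.40, where the last gene inside and the first outside had the same rounded value). It was called moderate if it was above background but not abundant (3045 genes, 16.8%). A gene was at the floor if it lay under the odorant receptor median on all 3 arrays (1972 genes, 10.9%), and the remaining 12241 genes (67.4%) lay between. These shares are the background against which each gene family below is read. A gene that lies between or at the floor may still be expressed, since a weakly binding probe set gives the same value.

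Replicate 1 stood apart from the other control arrays. Over all transcript clusters, Pearson's correlation of log2 intensity was 0.927 between replicates 1 and 2, 0.935 between 1 and 3 and 0.955 between 2 and 3. Sparc, a secreted glycoprotein of matrix-producing and mural cells, had 7.17 on replicate 1 against 12.12 and 12.68 on replicates 2 and 3. Tagln, an actin-binding protein of smooth muscle, had 7.93 against 12.40 and 12.62. Both were as low on replicate 1 of the Set groups (Sparc 7.12 in wt_Set and 7.01 in myr_Set). The summed linear intensity of 20 measured markers of endothelial cells, mural cells (the contractile cells of vessel walls) and fibroblasts was 1870 on replicate 1, 10120 on replicate 2 and 12510 on replicate 3. Replicate 1 was kept in all means.

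**Figure D1:**
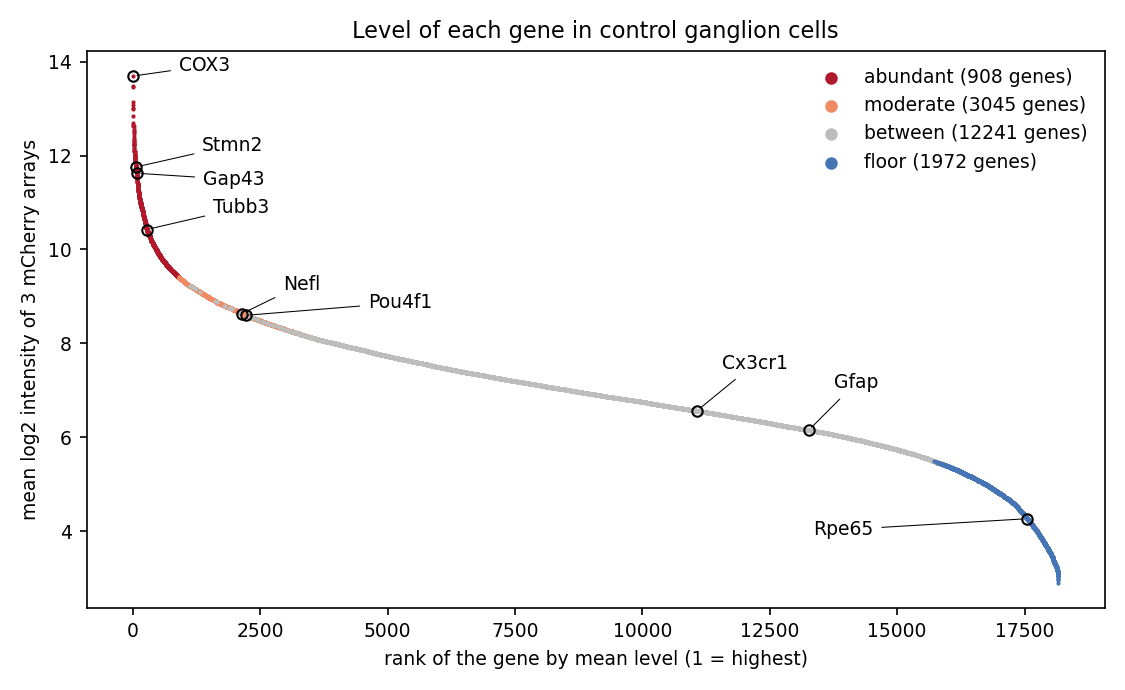
Each point is a gene, placed by its rank (x axis, 1 is highest) and its mean log2 intensity over the 3 mCherry arrays (y axis), and coloured by tier. The 908 abundant genes occupy the steep left end from 13.69 (COX3) down to 9.40, Stmn2 and Gap43 lie near the top, and the 1972 floor genes occupy the right end.

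The strongest signals came from genes of mitochondria and ribosomes. COX3, a subunit of cytochrome oxidase encoded by the mitochondrial genome, ranked 1 with 13.74, 13.62 and 13.72 on replicates 1, 2 and 3 (mean 13.69 ± 0.06 SD, n = 3). COX1 (13.47 ± 0.09) and COX2 (12.70 ± 0.09), subunits of the same enzyme, ranked 3 and 9, and these 3 were the mitochondrially encoded genes measured. Their values on the 3 arrays lay within 0.2 log2 units of each other. Rps29, a protein of the small ribosomal subunit, ranked 2 (13.48 ± 0.13), and Rpl41, a protein of the large subunit, ranked 4 (13.15 ± 0.18). Also among the 10 highest were Rn5-8s, a ribosomal RNA at rank 5, Rpph1, the RNA of RNase P (13.01 ± 0.39), Rps28 (13.00 ± 0.27), the elongation factor Eef1a1 (12.85 ± 0.10) and the actin gene Actb (12.64 ± 0.34).

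Ranks 11 to 30 added genes of neurons to this list of household genes. Stmn1, which binds tubulin dimers, ranked 17 with 13.04, 12.04 and 12.09 (mean 12.39 ± 0.57), highest on replicate 1. Calm2, a gene of the calcium sensor calmodulin, had 12.57 ± 0.24, and Mllt11, a small protein abundant in neurons, had 12.29 ± 0.33. Ndufs6 of respiratory complex I (12.46 ± 0.25) and Vdac1, the channel of the outer mitochondrial membrane (12.34 ± 0.18), ranked 16 and 19. The ferritin chains Ftl1 (12.25 ± 0.12) and Fth1 (12.11 ± 0.23), which store iron, and the redox protein Txn1 (12.22 ± 0.23) were in the same range. S100a11, a calcium-binding protein, ranked 18 on the mean (12.36 ± 1.07), but its replicates had 11.14, 12.85 and 13.11. Mif, a cytokine made by many cell types, showed the same order with 11.62, 12.09 and 12.79. The remaining places among the first 30 went to Rpl9, Rpl23, Rps20, Rpl21, Rpl27 and Rps3a, to ribosomal copies annotated as Faul2, Rplp2l3, Rpl37l1 and Rps27a-ps1. Array probes may not separate a ribosomal protein gene from near-identical copies elsewhere in the genome, so the level of a single member of that family is uncertain. The 10 highest genes held 2.21% of the summed linear signal of all named genes, the 100 highest 10.6% and the 908 abundant genes 33.3% (means over the 3 arrays).

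What the abundant genes share beyond their level was read from the DNA around their start sites. RefSeq entries (assembly GRCr8) covering 250 bases before to 50 after the annotated start were found for 14504 of the 18166 genes. The windows below are shown because they represent the families that head the ranking, a pair of ganglion cell markers and an odorant receptor near the bottom. Each runs from 150 bases before the start to 30 bases after it, 5′ to 3′ on the strand of the gene, with the start at base 151. Capitals mark matches, on either strand, to the TATA box (TATAAA), the CCAAT box (CCAAT), the GC box (GGGCGG) and the ETS site (CCGGAAG).
Rpl41, chr7:1563468-1563647, minus strand: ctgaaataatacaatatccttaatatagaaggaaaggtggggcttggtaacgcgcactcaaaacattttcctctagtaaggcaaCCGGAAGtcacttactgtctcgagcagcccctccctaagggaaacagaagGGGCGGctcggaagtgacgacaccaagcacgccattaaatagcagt
Ndufs6, chr1:31797250-31797429, plus strand: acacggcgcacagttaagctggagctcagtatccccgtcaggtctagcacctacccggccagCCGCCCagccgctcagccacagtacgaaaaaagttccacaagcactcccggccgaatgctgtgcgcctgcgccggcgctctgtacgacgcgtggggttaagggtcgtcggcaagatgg
Tubb3, chr19:68365537-68365716, plus strand: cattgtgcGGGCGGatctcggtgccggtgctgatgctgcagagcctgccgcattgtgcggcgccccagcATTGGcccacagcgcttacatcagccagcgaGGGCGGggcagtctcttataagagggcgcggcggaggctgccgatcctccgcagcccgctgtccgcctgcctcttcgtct
Pou4f1, chr15:87674614-87674793, minus strand: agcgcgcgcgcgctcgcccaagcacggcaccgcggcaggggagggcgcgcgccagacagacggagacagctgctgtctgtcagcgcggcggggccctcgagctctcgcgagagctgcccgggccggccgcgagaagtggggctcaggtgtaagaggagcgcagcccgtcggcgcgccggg
Or6d15, chr4:151491949-151492128, minus strand: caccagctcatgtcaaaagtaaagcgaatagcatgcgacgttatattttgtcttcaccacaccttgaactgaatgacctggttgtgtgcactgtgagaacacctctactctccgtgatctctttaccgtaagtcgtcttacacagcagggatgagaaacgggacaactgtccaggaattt
The window of Rpl41 holds an ETS site and a GC box, that of Ndufs6 a GC box, that of Tubb3 GC boxes and a CCAAT box, and those of Pou4f1 and Or6d15 none of these letters. Tubb3 had a level of 10.43 ± 0.44, Pou4f1 8.60 ± 0.65 and Or6d15 3.04 ± 0.18. No entry was found for the markers Stmn2, Gap43 and Nefl.

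Promoters of abundant genes were rich in CpG dinucleotides and those of floor genes were not. The median ratio of observed to expected CpG was 0.848 in 752 abundant genes, 0.812 in 2532 moderate genes, 0.595 in 9737 genes between and 0.195 in 1483 floor genes, beside 0.634 over all 14504. Median GC content was 61.0%, 62.2%, 57.3% and 42.0% in the same order. A GC box occurred in 68.8% of abundant promoters, 65.3% of moderate, 47.3% of those between and 14.4% of floor promoters, beside 48.2% of all. The ETS letters occurred in 20.6%, 20.0%, 11.6% and 2.70%, beside 12.6% of all. The TATA letters went the other way at the bottom, with 9.57%, 6.60%, 11.2% and 26.5%, beside 11.9% of all. The CCAAT letters varied little, between 37.1% and 40.1%. Within families that head the ranking, ETS letters were found in 13 of 48 ribosomal protein promoters (27.1%), 18 of 60 respiratory chain promoters (30%) and 10 of 29 proteasome promoters (34.5%), against 0 of 20 ganglion cell marker promoters.

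The annotated start bears on these shares. Of 998 odorant receptor entries 983 (98.5%) begin with ATG at the start itself, so that the window lies before the coding sequence and not before a transcript start, as in Or6d15. Such entries made up 2.13% of abundant and 40.5% of floor genes. Without them, floor genes (883 left) had a median CpG ratio of 0.259, TATA letters in 19.3% and a GC box in 22.1%, against 0.850, 9.38% and 69.2% in abundant genes (736 left). A match is a description of letters in a window, and genes are not independent replicates.

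**Figure D2:**
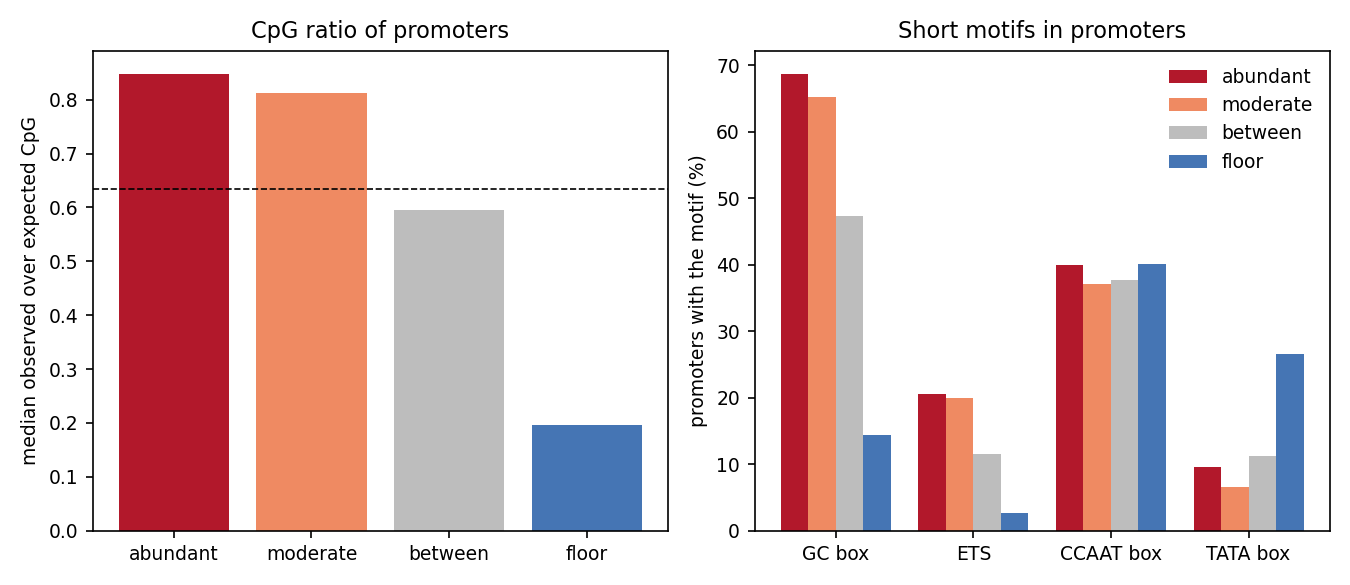
Left, the median ratio of observed to expected CpG in promoters of each tier, with the dashed line at the median of all 14504 entries (0.634). Right, the percentage of promoters of each tier with the GC box, ETS, CCAAT box or TATA box letters on either strand: GC box and ETS shares fall from abundant to floor, while the TATA share is highest at the floor (26.5%).

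Markers of ganglion cells were well represented. Of 32 measured markers (33 listed), 22 (68.8%, beside 21.7% of all genes) were above background, 9 were abundant, 10 lay between and 0 were at the floor, with a median level of 8.73 at the 89.2nd percentile of all genes. The list includes genes of neurons in general, such as Tubb3 and Elavl3, so its level alone does not separate ganglion cells from other neurons. In a pool of cells, fewer cells of a type and less RNA per cell cannot be told apart. Without replicate 1 the count was also 22. Stmn2, a stathmin that regulates microtubules in growing neurites, had 12.19, 11.33 and 11.74 on replicates 1, 2 and 3 (mean 11.76 ± 0.43, rank 60). Gap43, a membrane protein of the growth cone, had 12.07, 11.34 and 11.45 (mean 11.62 ± 0.39, rank 76). Both were highest on replicate 1, and every one of these values was more than 3 log2 units over the background of its array. Tubb3, the neuronal beta tubulin, had 10.84, 9.96 and 10.48 (mean 10.43 ± 0.44, rank 273).

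The surface and RNA-binding markers followed. Rbpms, an RNA-binding protein that marks ganglion cells within the retina, had 10.04, 9.95 and 10.31 (mean 10.10 ± 0.19). Chrnb3, a nicotinic receptor subunit, had 10.25, 9.89 and 9.94 (10.03 ± 0.19), and it was the highest of 40 measured receptors for acetylcholine, dopamine and serotonin. The synuclein Sncg (9.97 ± 0.24), the adhesion molecule L1cam (9.76 ± 0.57) and Thy1, the surface protein commonly used to capture these cells (9.56 ± 0.27), were abundant. Slc17a6, the vesicular glutamate transporter of ganglion cells, had 9.97, 8.96 and 9.15 (9.36 ± 0.54) and was moderate.

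The neurofilament genes were each read from a probe set of their own. Nefm had 11.05, 9.74 and 10.42 (mean 10.40 ± 0.66, rank 279), Nefl had 8.90, 8.46 and 8.54 (8.63 ± 0.24, rank 2143) and Nefh had 6.71, 6.87 and 7.01 (6.86 ± 0.15), which is under the background threshold on every array. Neurofilament proteins are the intermediate filaments of large axons, and the heavy chain is known to appear late in development. Prph, a related filament protein, was moderate with 8.18 ± 0.34, and Ina, the internexin, had 9.40 ± 0.50.

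Transcription factors among the ganglion cell markers were not abundant: several were moderate, and others were not above background on all arrays. Isl1, a LIM homeodomain factor, had 9.54, 7.98 and 8.56 (mean 8.69 ± 0.79). Pou4f1, known as Brn3a, had 9.30, 8.02 and 8.48 (8.60 ± 0.65, rank 2214), and Pou4f2, known as Brn3b, had 8.53, 7.85 and 8.13 (8.17 ± 0.34). Pou4f3 had 7.79, 6.88 and 7.12, above background on replicate 1 only. All 4 were highest on replicate 1. Sox4 (9.28 ± 0.24), Ebf1 (9.20 ± 0.18) and the RNA-binding neuronal proteins Elavl3 (9.11 ± 0.47) and Elavl4 (8.96 ± 0.50) were moderate as well. The lowest markers were Atoh7, the factor that starts ganglion cell fate in the embryo (5.95 ± 0.11), and Irx2 (5.70 ± 0.15).

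Of 22 genes that mark subtypes of ganglion cells 4 were above background (18.2%), a share near that of all genes (21.7%). Cartpt, a neuropeptide precursor of direction-selective ganglion cells, was abundant with 9.64, 8.98 and 9.92 (mean 9.51 ± 0.48). Foxp1 (9.34 ± 0.22), Spp1, the osteopontin of alpha ganglion cells (8.35 ± 0.26), and Igf1 (8.10 ± 0.37) were moderate. Opn4, the melanopsin of light-sensing ganglion cells, had 6.35 ± 0.33 and lay between, and Neurod2 (5.81 ± 0.04) and Kcng4 (5.68 ± 0.03) were lowest. 

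**Figure D3:**
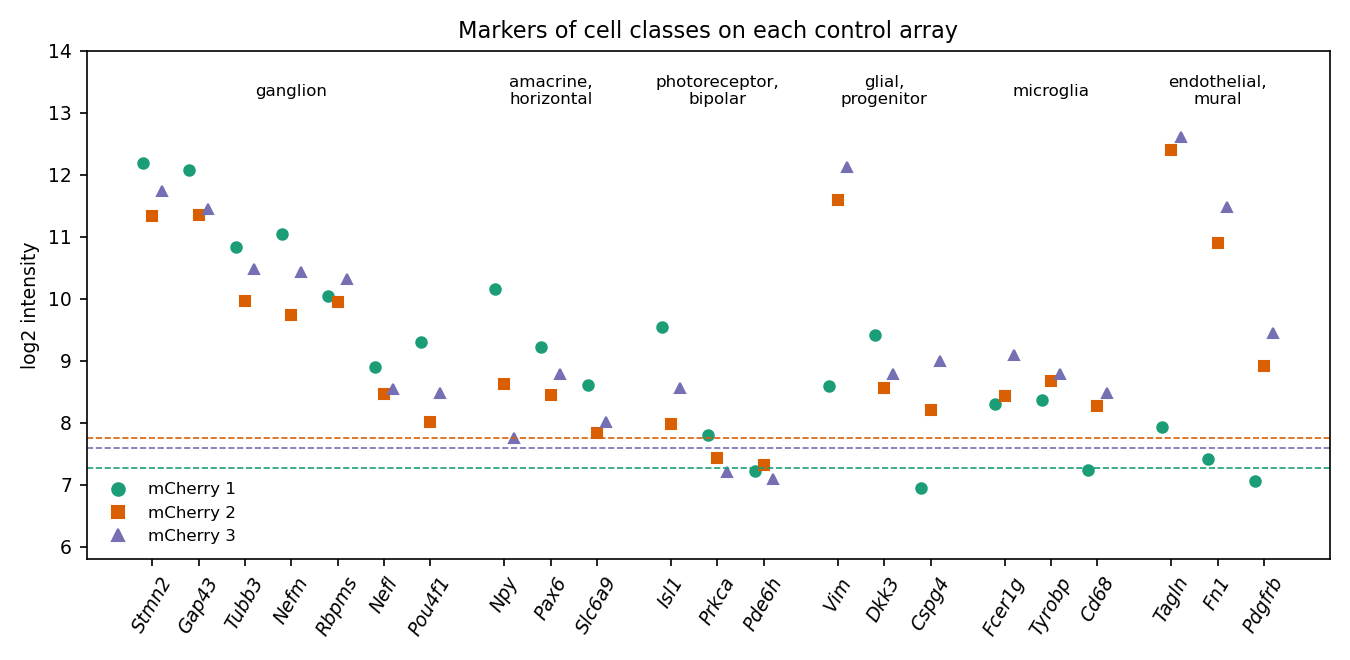
Log2 intensity (y axis) of named markers on each mCherry array, with a symbol per replicate and a dashed line at the background threshold of that array in the same colour. The ganglion cell markers plotted are among the 22 of 32 measured that lie above the lines on all arrays. The mural and matrix markers Tagln, Fn1 and Pdgfrb are lower on replicate 1 (7.93 for Tagln) than on replicates 2 and 3 (12.40 and 12.62).

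Other cell classes were read from their own marker lists. Of 20 amacrine and horizontal cell markers 3 (15.0%) were above background: the peptide Npy with 10.16, 8.63 and 7.75 (mean 8.85 ± 1.22), the eye-field factor Pax6 (8.81 ± 0.39) and the glycine transporter Slc6a9 (8.15 ± 0.41). Ganglion cells are known to express Pax6 as well. Npy spanned more than 2 log2 units and was highest on replicate 1. The defining enzymes were low, with Gad1 at 5.97 ± 0.16 and Chat at 6.09 ± 0.09, Gad2 (7.43 ± 0.57) was above background on 1 array, and Lhx1 of horizontal cells (5.02 ± 0.05) was at the floor. Of 24 photoreceptor and bipolar markers only Isl1 was above background, and it also stands in the ganglion cell list. The bipolar kinase Prkca (7.48 ± 0.30) and the cone subunit Pde6h (7.21 ± 0.11) followed, and Opn1mw (5.25 ± 0.03) and Cnga1 (4.04 ± 0.15) of photoreceptors were at the floor. The summed linear intensity was 3910, 2595 and 2691 for the amacrine and horizontal list and 2719, 2102 and 2132 for the photoreceptor and bipolar list, against 27670, 16980 and 20690 for ganglion cell markers. These sums run over lists of unequal length (20, 24 and 32 measured genes) and over different probes. They do not measure the share of each cell class. The list medians were 6.61, 6.23 and 8.73 in the same order.

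Glial, microglial and mural markers differed in how they spread over the arrays. Vim, an intermediate filament of many cell types and not of glial cells alone, had 8.60, 11.59 and 12.13 (mean 10.77 ± 1.90), lowest on replicate 1 as Tagln was. Dkk3 had 9.42, 8.55 and 8.79 (8.92 ± 0.45). Vim and Dkk3 were the 2 of 21 glial and progenitor markers above background, while Gfap (6.15 ± 0.12), S100b (5.62 ± 0.08) and Sox2 (5.40 ± 0.30) were not above it on any array. Cspg4, a surface proteoglycan of pericytes and oligodendrocyte precursors, had 6.94 on replicate 1 and 8.21 on replicate 2, was highest on replicate 3 (mean 8.05 ± 1.04) and was above background on replicates 2 and 3. Of 19 microglial and macrophage markers 3 (15.8%) were above background on all arrays. These were Fcer1g with 8.31, 8.42 and 9.09 and Tyrobp with 8.36, 8.67 and 8.78, both adaptors of immune receptors, and the lysozyme Lyz2 with 7.43, 7.97 and 8.46. Cd68, whose mean was among the 3 highest of the list, was not above background on all arrays. Without replicate 1, 4 of 19 were above background. Cx3cr1 (6.56 ± 0.30), Itgam (6.19 ± 0.27) and P2ry12 (5.71 ± 0.13) of microglia were not above background on any array. The list's summed intensity was 2523, 3027 and 3588.

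Endothelial, mural and fibroblast markers were mostly lowest on replicate 1, as were 13 of 21 glial and progenitor markers and 12 of 19 microglial and macrophage markers. Of 20 markers, 2 were above background on all arrays, Tagln (mean 10.98 ± 2.65) and Fn1, the fibronectin (7.41, 10.90 and 11.47), and 5 were without replicate 1. In 15 of 20 the lowest value was that of replicate 1, beside 30.7% of all genes. Pdgfrb, the growth factor receptor of pericytes, had 7.06, 8.92 and 9.45. Cldn5 of endothelial tight junctions (5.50 ± 0.05) lay between, and Dcn (5.20 ± 0.06) and Lum (4.91 ± 0.19) of fibroblasts were at the floor. Cells of this class in the cultures were not counted here, and their part in the values of genes that follow the same order was not tested. Of 13 pigment epithelium and lens markers 0 were above background, with Rpe65 at 4.27 ± 0.04, and of 5 measured red blood cell markers 0 were, with Hba-a1 at 4.78 ± 0.51 and Ahsp at 4.62 ± 0.31.

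The cytoskeleton of growing neurites ranked high. Of 17 stathmins and growth cone proteins 15 (88.2%) were above background and 9 abundant, with a median of 9.58. After Stmn1, Stmn4 had 12.75, 11.74 and 11.59 (mean 12.03 ± 0.63, rank 34), and Tmsb10, which binds actin monomers, had 11.24 ± 0.20. In 14 of 17 the highest value was that of replicate 1, beside 41.5% of all genes. Dpysl4 (7.43 ± 0.50) and Tmsb4x (7.03 ± 0.27) were lowest. Of 9 alpha and beta tubulins 7 were above background and 6 abundant. Tuba1b had 11.51, 11.59 and 11.59 (11.56 ± 0.05) and Tubb5 had 10.41, 10.76 and 11.06 (10.74 ± 0.32), while Tuba1c had 8.94, 10.82 and 11.50, the order of the mural genes. Tuba8 lay between (6.63 ± 0.24).

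Microtubule-associated proteins and motors were mostly highest on replicate 1 too. Of 18 microtubule-associated proteins 13 were above background and 6 abundant: Map1b, the main such protein of young axons, had 11.35, 10.55 and 10.52 (mean 10.81 ± 0.47), Map2 of dendrites had 10.04 ± 0.48 and Dclk1 had 9.89 ± 0.49. Map7 (6.95 ± 0.47) and Mapre3 (6.62 ± 0.28) were lowest, and 16 of 18 were highest on replicate 1. Of 27 kinesin, dynein and dynactin genes 20 (74.1%) were above background. Dynlt1, a light chain of dynein, had 11.38 ± 0.17 and Dync1i2, an intermediate chain, 10.85 ± 0.26, and Kif5b, a heavy chain of conventional kinesin, had 10.17 ± 0.35. The lowest were the mitotic kinesins Kif20a (5.41 ± 0.07) and Kif4a (5.38 ± 0.11). All 24 measured actin genes and regulators were above background, 17 of them abundant, led by Actb, the profilin Pfn1 (11.98 ± 0.62) and the small GTPase Cdc42 (11.57 ± 0.21), down to Arpc1b at 8.14 ± 0.23. Unlike the microtubule-associated proteins and motors, 5 of these 24 were highest on replicate 1 and 7 lowest, beside 41.5% and 30.7% of all genes. Actb had 12.26, 12.77 and 12.90 and Pfn1 11.35, 12.01 and 12.58, both lowest on replicate 1. The part of other cell classes in these values was not tested.

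Genes of protein synthesis, energy and protein turnover ranked high. Cytosolic ribosomal proteins had 51 of 58 members above background (87.9%) and 46 abundant (79.3%, beside 5% of all genes), with list medians of 11.14, 11.13 and 11.60 on replicates 1, 2 and 3. The exceptions included Rps9 (5.85 ± 0.21) and Rpl5 (4.92 ± 0.21), the latter at the floor, on an array where single members of this family may share probes with copies. Of 29 translation factors 28 were above background and 18 abundant, led by Eef1a1, Tpt1 (11.93 ± 0.20) and Eef1g (11.70 ± 0.23). Of 68 nuclear-encoded respiratory chain genes 65 (95.6%) were above background and 43 abundant, led by Ndufs6, Cox6a1 (11.99 ± 0.21) and Cox5a (11.89 ± 0.15), with Uqcrb lowest at 6.17 ± 0.18. Glycolysis gave 11 of 14 above background but 2 abundant: the aldolase Aldoa had 11.08 ± 0.23 and Gpi 9.58 ± 0.36. The muscle phosphofructokinase Pfkm (6.92 ± 0.27) and the hexokinase Hk2 (6.87 ± 0.02) were not above it.

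Turnover and folding genes followed closely. Of 34 proteasome and ubiquitin genes 32 were above background and 24 abundant, led by the subunits Psmb4 (11.80 ± 0.14) and Psma7 (11.77 ± 0.52) and by Skp1 of ubiquitin ligases (11.68 ± 0.16). Of 24 heat shock and chaperone genes 20 were above background and 20 abundant, with Hspa8, the constitutive chaperone, at 12.10 ± 0.12, Hsp90ab1 at 11.27 ± 0.08 and Dnaja1 at 11.14 ± 0.41. Cryab, a small heat shock protein, was abundant on the mean but had 6.44, 10.65 and 11.22. Splicing factors had 33 of 40 above background, with Snrpe at 11.66 ± 0.28 and Hnrnpa1 at 11.39 ± 0.10. The neuronal splicing factor Nova2 was lowest at 6.59 ± 0.09. Antioxidant and ferritin genes had 20 of 23 above background, 11 abundant, with the lowest levels in Gclm (7.36 ± 0.12) and Gsta4 (5.31 ± 0.08).

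**Figure D4:**
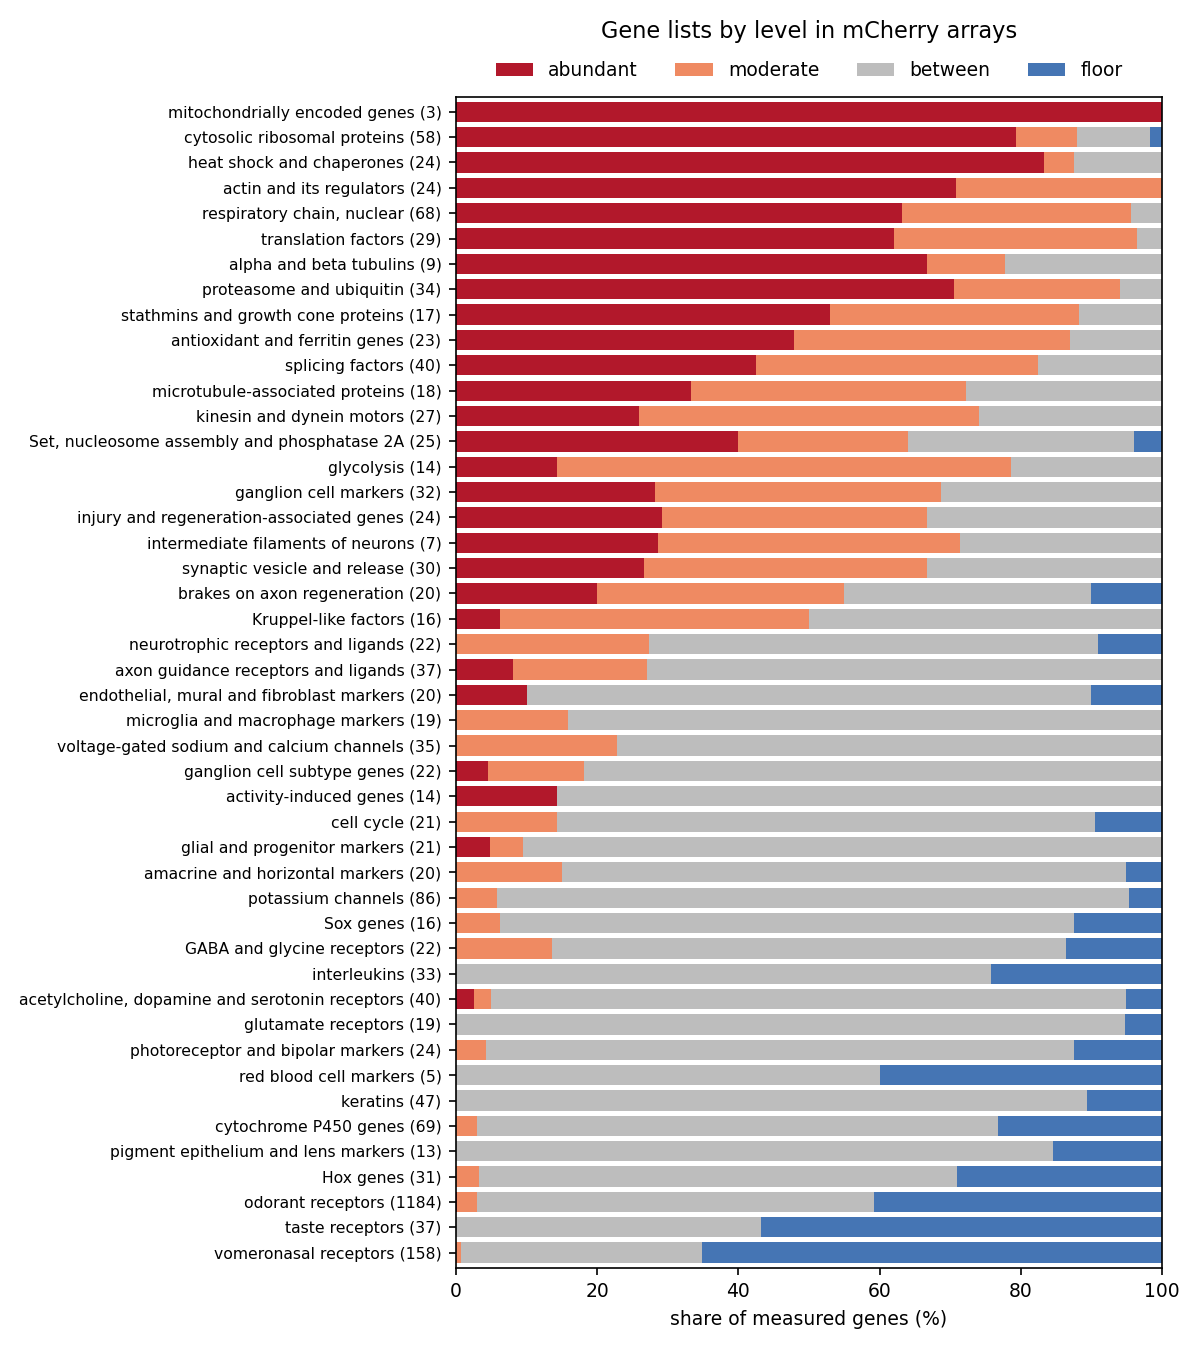
Each bar is a gene list, with the number of measured genes in parentheses, ordered by median level from highest (top) to lowest, and shows the percentage of its genes (x axis) in each tier on the mCherry arrays. Mitochondrial, ribosomal, chaperone, actin and respiratory chain genes at the top are mostly abundant, ganglion cell markers lie in the upper middle, and chemosensory receptors at the bottom are mostly between or at the floor.

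Machinery for transmitter release was present while most transmitter receptors were not above background. Of 30 synaptic vesicle and release genes 20 (66.7%) were above background and 8 abundant. Snap25, a protein of the fusion machinery, had 11.84, 10.86 and 11.16 (mean 11.29 ± 0.50), the proton pump subunit Atp6v0c 11.55, 10.73 and 10.90 and the synaptotagmin Syt4 11.57, 10.38 and 10.62. In 28 of 30 the highest value was that of replicate 1. Slc17a7, the glutamate transporter of cortical neurons, had 6.30 ± 0.14 and was not above background.

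Of 19 glutamate receptor subunits 0 were above background on all arrays. Grik5, a kainate receptor subunit, had 8.43, 7.72 and 7.87, above the threshold on 2 of 3 arrays, and Grin1, the obligatory NMDA receptor subunit, had 8.63, 7.58 and 7.69 and met it on 2. Gria4 of AMPA receptors had 8.14, 7.02 and 7.39. Gria3 was at the floor (5.30 ± 0.15). Of 22 GABA and glycine receptor subunits 3 were above background, namely both metabotropic GABA receptor subunits, Gabbr1 (9.30, 8.85 and 9.08) and Gabbr2 (8.78 ± 0.31), and Gabra2 (9.70, 8.33 and 8.79). Gabra6, known from the cerebellum, was at the floor (4.50 ± 0.16). Of 40 receptors for acetylcholine, dopamine and serotonin 2 were above background, Chrnb3 and Htr1b (8.32 ± 0.38), beside 21.7% of all genes.

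Ion channels were mostly between. Of 35 sodium and calcium channel subunits 8 (22.9%, beside 21.7% of all genes) were above background and 0 abundant, and 25 of 35 were highest on replicate 1. Cacng5 had 9.21, 8.84 and 9.63 (mean 9.23 ± 0.40), Cacng7 had 9.11 ± 0.46 and Cacna2d1 8.82 ± 0.32. All are auxiliary subunits of calcium channels by name, and what they bind in these cells was not measured. Scn2a, a pore-forming sodium channel of axons, had 9.22, 8.19 and 8.53 (8.65 ± 0.52), and Scn10a of sensory neurons was lowest at 5.60 ± 0.05. Of 86 potassium channel genes 5 (5.81%) were above background, led by Kcnd3 (8.57 ± 0.51), Kcna6 (8.49 ± 0.40) and Kcnma1 (8.30 ± 0.80), and Kcnj1 (5.21 ± 0.06) and Kcne4 (5.13 ± 0.08) were at the floor.

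Receptors for trophic and guidance cues were above background at shares near that of all genes (21.7%). Of 22 neurotrophic receptors and ligands 6 (27.3%) were above it and 0 abundant: the adhesion molecule Ncam1 had 10.01, 8.84 and 8.89, the receptor Cntfr for ciliary neurotrophic factor had 9.55, 8.83 and 8.97, and its partner Il6st had 8.84 ± 0.24. Ntrk2, the receptor for brain-derived neurotrophic factor, had 8.63, 7.96 and 8.09. The ligands Ntf3 (5.33 ± 0.21) and Gdnf (5.28 ± 0.05) were at the floor. Of 37 axon guidance genes 10 (27.0%) were above background and 3 abundant, namely the adhesion molecules L1cam, Alcam (9.59 ± 0.14) and Cntn1 (9.45 ± 0.62). Epha5, an Eph receptor, had 9.18 ± 0.40 and Robo2, a receptor for Slit proteins, 8.63 ± 0.44, while Epha3 (5.83 ± 0.33) and Robo3 (5.70 ± 0.25) were lowest. Guidance genes are long, with a median span of 181 kb in the RefSeq table, against 17.2 kb for all genes, 13.8 kb for abundant, 25.2 kb for moderate and 4.31 kb for floor genes.

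Genes known to respond to axon injury were high in these axotomised cells. Of 24 injury and regeneration-associated genes 16 (66.7%) were above background and 7 abundant. Atf4, a transcription factor of the integrated stress response, had 11.72, 11.68 and 11.74 (mean 11.71 ± 0.03), the smallest SD among abundant genes. Its target Ddit3 had 10.02, 9.60 and 9.60 (9.74 ± 0.24), and Jun, a factor induced by axotomy, had 10.14, 9.30 and 9.21 (9.55 ± 0.51). Sprr1a (9.85, 8.77 and 8.63) and the peptide galanin, Gal (9.60, 8.65 and 8.91), both known from regenerating neurons, were moderate. Highest on replicate 1 were 22 of 24. Arg1 (6.65 ± 0.09) and Bcl2l11 (5.96 ± 0.47) were lowest. No uninjured ganglion cells were among the arrays, so the values give a level and not a response.

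Genes that limit axon growth were present beside them. Of 20 such genes 11 (55.0%) were above background and 4 abundant: Rtn4, the gene of Nogo, had 11.46, 11.04 and 11.09, the GTPase Rhoa had 10.87, 11.12 and 11.50, and its kinase Rock2 had 9.73 ± 0.60. The myelin ligand Omg (5.21 ± 0.14) and Lilrb3 (5.26 ± 0.21) were at the floor. The Krüppel-like factors are a list of their own, not sorted here by their effect on axon growth. Among 16 of them 8 were above background. Klf7 was abundant with 10.65, 9.93 and 10.48 (mean 10.35 ± 0.38), while Klf6 (8.87 ± 0.27) and Klf3 (8.51 ± 0.65) were moderate. Klf15 (6.12 ± 0.05) and Klf17 (5.61 ± 0.20) were lowest. Of 14 activity-induced genes 2 were above background: Egr1 had 10.31, 9.96 and 9.67 and the phosphatase Dusp1 had 9.46 ± 0.42, while Fos (7.77 ± 0.21) met the threshold on 2 arrays and Nr4a3 (6.22 ± 0.21) and Egr3 (5.76 ± 0.05) on none.

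The relatives of the transfected protein were measured in the control cells as well. Of 25 genes of Set, nucleosome assembly and protein phosphatase 2A, 16 (64.0%) were above background and 10 abundant. Nap1l1, a nucleosome assembly protein, had 11.24 ± 0.20, Anp32b 10.82 ± 0.29 and Setsip, a gene close in sequence to Set, 10.70, 10.72 and 10.85 (mean 10.76 ± 0.08). Set itself was not analysed here, and the probes of Setsip may not separate its transcripts from those of Set. Ppp2r5a (6.45 ± 0.26) and Cip2a, an inhibitor of the phosphatase (4.79 ± 0.10), were lowest.

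Genes of division and of other lineages were above background less often than all genes. Of 21 cell cycle genes 3 (14.3%, beside 21.7% of all genes) were above background, Pcna (9.04 ± 0.49), Ccnb2 (9.03 ± 0.14) and Tyms (8.50 ± 0.52). The median of this list was 6.73, at the 44.3rd percentile of all genes. Mki67, the usual mark of dividing cells, had 5.88 ± 0.16, and Cdk1 (5.15 ± 0.09) and Bub1 (4.68 ± 0.23) were at the floor. Of 31 Hox genes, which pattern the trunk and hindbrain, 1 was above background, Hoxb2 (7.74, 7.79 and 7.79), and 9 were at the floor (29.0%, beside 10.9% of all genes). Of 16 Sox genes 1 was above background, Sox4. Keratins gave 0 of 47, interleukins 0 of 33 and taste receptors 0 of 37, and cytochrome P450 genes gave 2 of 69, Cyp4x1 (8.24 ± 0.69) and Cyp4f5 (7.90 ± 0.43). Il1a had 7.19, 8.15 and 8.94, so 2 of its values were above background and the lowest was that of replicate 1.

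Chemosensory receptors, 1 family of which set the thresholds, were not uniform. By construction 60 of 1184 odorant receptors exceeded the threshold on each array, and 35 (2.96%) did so on all 3. Or8h7b was abundant with 11.30, 11.20 and 10.81 (mean 11.11 ± 0.26, rank 127), and Or1e33 (8.87 ± 0.31) and Or4f61b (8.85 ± 0.55) were next in the family. The array gives no strand or read evidence on what Or8h7b's probes bound. Vomeronasal receptors had 1 of 158 above background, Vom1r74 (8.08 ± 0.07), and 103 at the floor. Taste receptors had 21 of 37 at the floor, with Tas2r124 lowest at 3.25 ± 0.11. The lowest named genes of all were Mirlet7f2 (2.91 ± 0.11), Or8g20 (2.97 ± 0.19) and Ear1, a ribonuclease gene (2.98 ± 0.07).

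The array also names 363 microRNA genes, of which 25 (6.89%, beside 21.7% of all genes) were above background, 3 were abundant and 140 (38.6%) were at the floor. MicroRNAs are short RNAs that repress messages matching their seed, bases 2 to 8. The deposited value belongs to the gene's cluster, so the mature microRNA was not measured, and for the 22 of 25 that lie inside another gene the signal of the host and of the hairpin cannot be told apart. The mature forms of 5 of these genes are shown because they are known from neurons or from smooth muscle, with the seed in capitals. They are credited to RefSeq, which had a mature form for 24 of the 25 genes.
rno-let-7a-5p: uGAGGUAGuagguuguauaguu
rno-miR-9a-5p: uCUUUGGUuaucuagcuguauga
rno-miR-23b-3p: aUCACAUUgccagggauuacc
rno-miR-24-3p: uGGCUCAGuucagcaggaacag
rno-miR-143-3p: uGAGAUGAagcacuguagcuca
All have different seeds, and among the 43 seeds of the 24 genes 0 were shared by genes of the set.

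Mirlet7a1, a gene of the let-7 family, had 8.74, 8.84 and 8.82 (mean 8.80 ± 0.05). Mir9-1, a gene of miR-9 of neural tissue, had 7.75, 7.99 and 7.97. Mir23b had 10.11, 9.01 and 8.82 and its neighbour Mir24-1 had 8.33, 8.25 and 8.60, both inside Aopep, an aminopeptidase gene whose own cluster had 6.56. Mir143, known from smooth muscle and lying inside Carmn, had 7.29, 8.11 and 8.29, lowest on replicate 1 as the mural markers were. The abundant microRNA genes were Mir761 (10.64, 10.89 and 10.59), inside Nrdc, which itself had 9.72, Mir3597-1 (10.18 ± 0.39) and Mir544 (10.78, 10.28 and 9.10). RefSeq's table gave no mature form for Mir761.

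How far 3 arrays fix a level depended on the gene. The median SD was 0.328 in abundant, 0.306 in moderate, 0.209 in between and 0.168 in floor genes. The moderate and floor tiers ask for all 3 arrays on 1 side of a threshold, which by itself keeps widely spread genes out of them. Of 908 abundant genes 760 had an SD under 0.5 and 32 an SD over 1, and in 31 of these 32 the lowest value was that of replicate 1. The 10 of largest SD were Sparc (3.03), Tagln (2.65), Cryab (2.61), Actg2 (2.52), Ccn2 (2.47), Myl9 (2.40), Cald1 (2.27), Fn1 (2.20), S100a6 (2.17) and Myl12a (2.05). On replicate 1 these 10 lay between 6.44 and 7.97, and on replicates 2 and 3 between 10.65 and 12.68. Each of the 10 was lowest on replicate 1 in the wt_Set and myr_Set groups too. Actg2, Myl9, Cald1 and Myl12a belong to the contractile apparatus, and Ccn2 and Fn1 are secreted matrix proteins. Of these Sparc, Ccn2, Actg2 and Cryab are abundant on the mean although replicate 1 lay under its background threshold. After Atf4 the smallest SDs were those of the cytochrome oxidase subunit Cox7c (0.04), the RNA-binding proteins Elavl1 (0.04) and Rbm8a (0.04), and Tuba1b (0.05).

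**Figure D5:**
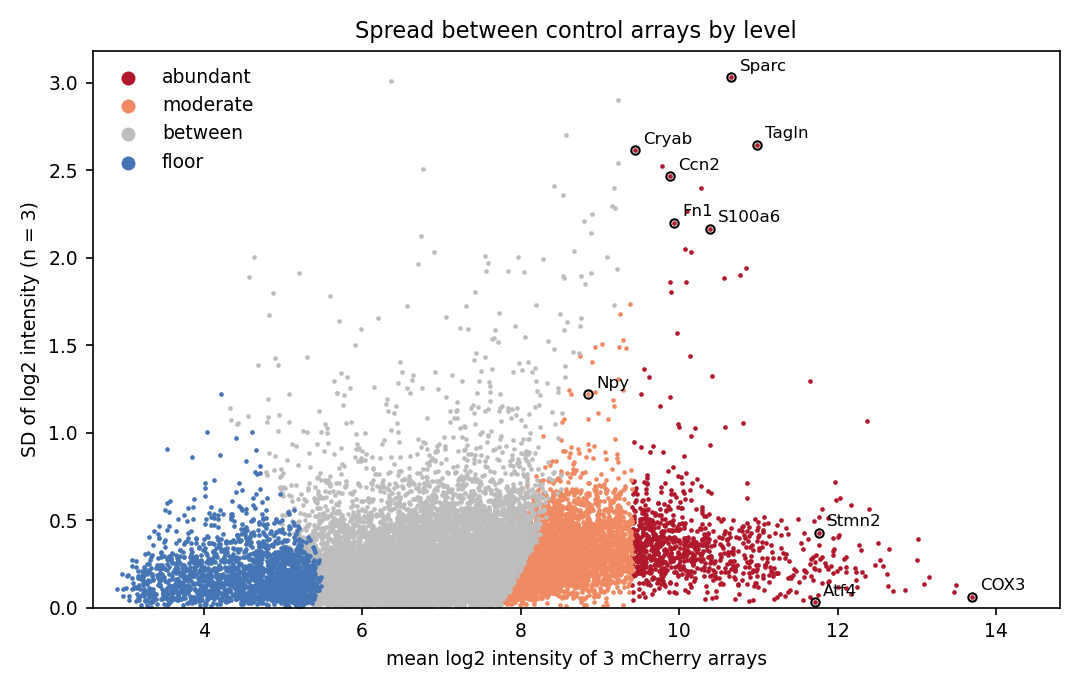
Each point is a gene, placed by its mean log2 intensity (x axis) and the SD over the 3 mCherry arrays (y axis) and coloured by tier. Most abundant genes lie under an SD of 0.5, COX3 and Atf4 near 0, and matrix and contractile genes led by Sparc (3.03) and Tagln (2.65) form the upper right.

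Several neuronal lists ran the other way on replicate 1. Its value was the highest of the 3 in 22 of 32 ganglion cell markers, 28 of 30 synaptic genes, 22 of 24 injury genes, 16 of 18 microtubule-associated proteins and 20 of 27 motors, beside 41.5% of all genes and 53.9% of moderate genes. In other lists of neurons this was not so, with 8 of 22 ganglion cell subtype genes, 8 of 20 amacrine and horizontal markers and 4 of 9 tubulins highest on replicate 1. It was the lowest in 29 of 58 ribosomal protein genes, beside 21.9% of abundant genes. The part of mural cells in these orders was not tested.

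The set of abundant genes was largely shared between arrays. When each array was ranked alone, 623 genes (68.6% of 908) were in the top 5% of all 3, and pairs of arrays shared 690 (replicates 1 and 2), 655 (1 and 3) and 788 (2 and 3). Without replicate 1 the top 5% held 827 of the 908. Between group means, 794 of the 908 (87.4%) were also in the top 5% of wt_Set and 794 (87.4%) in that of myr_Set. Both counts use the same mCherry arrays.

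Levels of the control cells were then compared with each Set group by limma over all 9 arrays (18343 clusters tested, Benjamini-Hochberg adjustment). No cluster passed an adjusted p of 0.05 in either comparison (0 called, 0%). At an unadjusted p under 0.05, 1865 (10.2%) differed in wt_Set, 557 higher (3.04%) and 1308 lower (7.13%), and 1796 (9.79%) in myr_Set, 526 higher (2.87%) and 1270 lower (6.92%). The abundant genes were lower in 895 of 908 cases in wt_Set, with a median difference of -0.60, and in 898 in myr_Set, with -0.65, beside -0.29 and -0.26 over all 10517 genes tested. The abundant genes were chosen for high values on the mCherry arrays, which by itself leans these differences downward, and both comparisons share those arrays. Quantile normalization made their median difference -0.27 in wt_Set and -0.35 in myr_Set, and cyclic loess made it -0.23 and -0.19. With quantile normalization the split of the unadjusted counts turned, to 858 higher and 514 lower in wt_Set and 883 and 658 in myr_Set, and with cyclic loess to 925 and 773, and 972 and 713. The scalings moved the median difference over all clusters from -0.18 to -0.03 in wt_Set and from -0.16 to between -0.03 and -0.01 in myr_Set. On the deposited scale the difference in myr_Set also depended on single arrays. It was -0.08 without myr_Set replicate 1, -0.16 without replicate 2 and -0.24 without replicate 3. The myr_Set arrays correlated at 0.925 (replicates 1 and 2), 0.863 (1 and 3) and 0.937 (2 and 3).

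Single abundant genes gave the following values. Fabp3, a fatty acid carrier, had 9.49 ± 0.07 in mCherry against 8.58 ± 0.11 in wt_Set and 8.33 ± 0.41 in myr_Set, with a limma adjusted p of 0.447 in both. Zcchc17 (9.41 ± 0.18 against 8.14 ± 0.39 in wt_Set) and Taf9, a subunit of transcription factor complexes (9.77 ± 0.21 against 8.72 ± 0.26), had the next smallest p among lower genes there. In myr_Set these places went to Rgs4, a regulator of G protein signalling (9.50 ± 0.29 against 8.48 ± 0.16), and Chrnb3 (10.03 ± 0.19 against 9.14 ± 0.50). On the higher side were Mir761 (10.71 ± 0.16 against 11.63 ± 0.39 in wt_Set and 11.46 ± 0.28 in myr_Set), Ighl13, Or8h7b in myr_Set (11.11 ± 0.26 against 11.89 ± 0.23) and Mir3597-1 in wt_Set (0.66 higher on the log2 scale). None of these passed, and the adjusted p of each was 0.447 by limma. The 5 markers were compared on the deposited scale. Stmn2 had differences of -0.63 ± 0.34 (SE) in wt_Set and -0.42 ± 0.34 in myr_Set, Gap43 -0.75 ± 0.37 and -0.33 ± 0.37, Tubb3 -0.46 ± 0.36 and -0.47 ± 0.36, Nefl -0.51 ± 0.28 and -0.50 ± 0.28, and Pou4f1 -0.39 ± 0.34 and -0.69 ± 0.34, with limma adjusted p between 0.447 and 0.627. These differences were smaller under both other scalings, and with cyclic loess those of Stmn2 (0.03) and Gap43 (0.12) in myr_Set changed sign.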

How the data were processed

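Per the labels' protocols, RNA of 9 samples was amplified and biotin-labelled, and each was measured on a Rat Gene 2.0 ST array from Affymetrix. Per the submitters' processing notes the authors used Affymetrix Expression Console and RMA, which corrects background, normalizes between arrays and summarises probes; per the design text they then normalized each sample to its median. The deposited table holds intensity on a linear scale for 36685 transcript clusters, with a median of 100 on every array. The number of arrays, 3 in each group, limits the precision.

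The platform annotation gave 18511 clusters 1 symbol, 575 several and 17599 none, and 18394 matched RefSeq (GRCr8). Intensities were log2-transformed, and 18166 genes were ranked, 291 of them from several clusters by the cluster of highest mean. In 1401 clusters, values equalled those of another cluster. Group differences came from limma 3.58.1 in R 4.3.3 (lmFit and eBayes, two-sided, all 9 arrays, clusters at or above the median mean). The same fit was run on simulated data with independent noise on each array and large added changes. That run does not show which smaller differences the fit would miss in these arrays. Alternatives were scaling, cluster choice, background reference and threshold, level filter, replicate block and leaving out arrays. The tiers, members, gene lists and tests were chosen with earlier results of these data known. Named were the 30 highest genes, the 3 highest and 2 lowest of each list, the 10 most and 5 least variable abundant genes, the markers, and the 3 abundant genes of smallest p in each direction; other genes were named after their values were seen. Protein lengths, which the design listed, were not analysed here.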

Additional observations from a re-analysis of the deposited data

How the results depend on the processing

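The 3949 genes above background became 1552 with the 99th percentile of odorant receptors as threshold, the setting that moved this count by over 1.5 times. Other settings gave 3833 (cyclic loess), 3949 (quantile normalization), 3927 (mean over a gene's clusters), 3945 (identical clusters left out), 5641 (2 of 3 arrays) and 5837 (vomeronasal receptors as background), and leaving out 1 array gave 3997 to 5441. Quantile normalization keeps the order of clusters within an array. A count set by a percentile of the same array could therefore hardly change, and its value is no check of the count. In each leave-out 21 of 46 lists had a median above background (range 21 to 21). List medians moved by more than 1 SD in 13 lists with cyclic loess, 4 with quantile normalization, and 10, 3 and 5 without replicates 1, 2 and 3. Without replicate 1, an alternative chosen after seeing the data, counts of members above background moved by over 1.5 times in 2 of 46 lists, from 2 to 5 in endothelial, mural and fibroblast markers and from 0 to 1 in interleukins.

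Leaving out 1 array, the abundant genes shared with wt_Set numbered 776 to 790, with myr_Set 745 to 804, and between mCherry arrays 655 to 788. In the top 1% (182 genes) 165 and 164 were shared with the Set groups and 126 between the arrays, and in the top 10% (1817 genes) 1597, 1585 and 1314. No setting gave a called cluster in limma (0 in each, leave-outs 0 to 0), while counts at an unadjusted p under 0.05 ran from 882 (without mCherry replicate 1) to 4278 (only the 2 groups compared) in wt_Set and from 639 (without myr_Set replicate 1) to 6138 (without myr_Set replicate 3) in myr_Set. The replicate block gave 0 calls and 1937 and 1754 unadjusted. Deviations of same-numbered arrays correlated at 0.383, 0.0216 and 0.273 for wt_Set and -0.069, 0.024 and 0.243 for myr_Set, not all over 0.1, so the numbers were not taken as pairs, although the 10 abundant genes of largest SD were lowest on replicate 1 in all 3 groups. The cause of these shifts was not tested. With 3 arrays a group and signals of differing probes, small differences between genes of close rank have no order.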
